A study of Homo sapiens with 16 samples.

Results

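The genes described here are the PARP enzymes and their close partners in the response to olaparib, 9 of the 32285 genes in single-cell count tables of mouse mammary tumors. They were chosen by name: Parp1, Parp2, Parp3, Parp4, Parg, Tnks, Tnks2, Xrcc1 and Trp53bp1. All 9 had at least 100 unique molecular identifiers (UMIs, one for each captured mRNA molecule) over both arms of every comparison of malignant with immune or stromal cells and of T22 with T127. Summed over proliferating and other cells, 6 of them reached 100 UMIs in long-term T cells and 8 in short-term T127 macrophages.

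LPA1-T22 (T22) and LPA1-T127 (T127) are transplantable tumors from mice expressing the LPA1 receptor in the mammary epithelium, described by the study as sensitive and resistant to PARP inhibitors, respectively. Chunks of 25 mm3 were placed in the mammary fat pad of female FVB mice bought at 6 weeks of age. By the study's methods, treatment was allotted 14 days (T22) or 10 days (T127) later, while its results give 14 days for short-term tumors to establish. In the short-term experiments, mice with T22 or with T127 received vehicle or olaparib at 50 mg/kg by mouth each day for 4 or 8 days, and cells were captured in 4 pools of T22 and 4 of T127. In the long-term experiment, mice received vehicle or olaparib at 50 mg/kg for 20 days. They carried T22 alone, T127 alone, or both on opposite sides, and cells were captured in 8 pools. By the study's results, T22 was placed about 14 days before T127, and mice with a single line followed the same times. Dead cells were removed before capture, and each line is a single tumor model rather than a set of independent tumors. The cells were tagged by tumor, but every pool held vehicle and olaparib tumors together and the tables used here do not tie a cell to its tumor. Levels are therefore given over both treatments, and each experiment counts as 1 sample. No olaparib contrast and no test across animals could be made. Pools are captures of mixed tumors rather than groups of mice, and which tumors each pool held was not stated.

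PARP1 and PARP2 sense breaks in DNA and build chains of poly(ADP-ribose) from NAD on themselves and on nearby proteins. These chains bring in XRCC1, the scaffold of single-strand break repair, and are taken apart by PARG. Olaparib blocks the catalytic site of PARP1 and PARP2 and traps them on DNA, so that both the enzymes and the balance of chain making and removal matter for the drug. PARP3 adds single ADP-ribose units at breaks, PARP4 is the PARP of the vault particle, and the tankyrases TNKS and TNKS2 modify axins and the telomere protein TRF1. 53BP1, encoded by Trp53bp1, shields double-strand ends from resection, and its loss is a known route to PARP inhibitor resistance in cells without BRCA1.

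After 1 copy was kept of each barcode that long-term pools shared, 48824 of 53946 deposited cells remained, and all 5122 copies left out came from the long-term experiment. Long-term pools 1 and 2 shared 3939 barcodes, pools 1 and 3 shared 987, pools 2 and 3 shared 1082, and the other 25 pairs shared 1 to 8. Pools 1, 2 and 3 are therefore not fully separate captures, although counts over long-term pools treat them as such. Each pool held 32298013 to 55600377 UMIs. The deposited annotation gave 22 cell labels, 4 malignant, 15 immune and 3 stromal. All malignant cells of the short-term T127 pools were named Malign_0 or Malign_1, and all those of the short-term T22 pools Malign_2 or Malign_3, so the same labels were read as T127 and T22 in the long-term pools. T22 malignant cells carried epithelial markers (Epcam 1668, Krt8 940 and Krt18 1266 counts per 1000000 UMIs, CPM, in the long-term experiment). T127 malignant cells carried Krt8 (635 CPM) and Krt18 (558 CPM), while Epcam (4.31 CPM), Cdh1 (0.619 CPM) and Cldn3 (0.988 CPM) were near 0. They also carried the fibroblast marker Dcn at 4312 CPM, against 5567 CPM in stromal and 484 CPM in T22 malignant cells, while the fibroblast marker Pdgfrb was at 3.63 CPM against 125 CPM in stromal cells. Malignant cells were deeper than immune cells, with medians of 20068 UMIs in T127, 15599 in T22 and 8118 in immune cells of the long-term experiment.

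Levels are UMIs of a gene per 1000000 UMIs of the cells summed, so they compare cells for the same gene. They do not compare genes with each other. In the long-term pools, both lines were set against the same immune and stromal cells, which came from T22 and T127 tumors together. Short-term malignant cells were set against cells from tumors of their own line. Long-term and short-term ratios therefore rest on unlike immune and stromal cells. Ranges after a fold are 95% intervals of counting error alone, and pool ranges show the spread between captures. A gene was counted as higher or lower when its summed levels differed at least 1.5-fold, in the same direction in every pool. TMM scaling, a scaling by trimmed means of the gene ratios, was tried beside the totals, and is named where it changed a count or a direction.

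**Figure D1:**
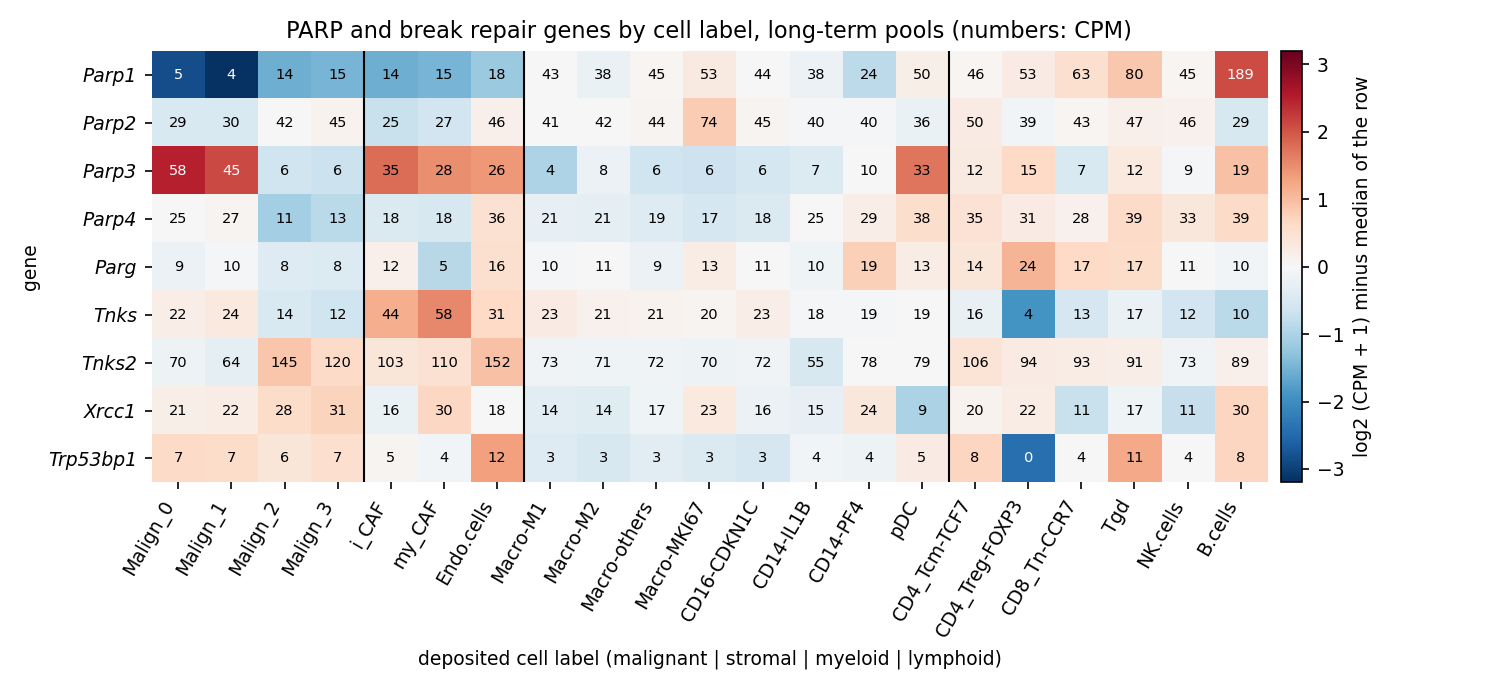
Levels of the 9 genes (vertical axis) in the 21 long-term cell labels with at least 50 cells (horizontal axis). Numbers are CPM and colour is log2(CPM + 1) minus the gene's median over labels, to be read along a gene. Parp1 is lowest in Malign_1 (3.97 CPM) and Malign_0 (5.27 CPM), where Parp3 is highest (44.6 and 58.1 CPM).

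Parp1 was the member with the widest gap below the immune cells in both tumor lines. In the long-term pools, T127 malignant cells had a lowest Parp1 level of 3.17 CPM, a median of 4.73 and a highest of 6.63. In T22 malignant cells the same values were 10.9, 14.7 and 19.9 CPM, and in immune cells 32.5, 42.2 and 54.7 CPM. The 3 ranges did not overlap, with T127 lowest and immune cells highest. Summed, Parp1 was 9.21-fold lower in T127 malignant than in immune cells (8.39 to 10.1) and 3.04-fold lower in T22 malignant than in immune cells (2.79 to 3.32). Those immune cells came from tumors of both lines, whereas those of each short-term experiment came from a single line. Short-term malignant cells were again below immune cells. T22 malignant cells had Parp1 at 22.6, 19.6, 25.6 and 22.9 CPM in pools 1 to 4, against 67.9, 72.9, 76.4 and 69.4 CPM in immune cells (3.16-fold lower, 2.98 to 3.37). T127 malignant cells had 14.2, 13.1, 14.0 and 12.4 CPM, against 51.6, 56.4, 54.4 and 50.8 CPM (3.96-fold lower, 3.72 to 4.22). No malignant pool came near an immune pool in either experiment.

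Stromal cells stood between. Parp1 was 14.5 CPM in long-term stromal cells, 3.05-fold above T127 malignant cells (2.55 to 3.62), while the T22 ratio to stromal cells was 0.993 (0.838 to 1.18) and turned to above 1 under TMM scaling. In the short-term T127 pools Parp1 was 1.5-fold lower in malignant than in stromal cells (1.15 to 1.92), a difference that fell below 1.5-fold when pool 1, 2 or 3 was left out or under TMM scaling. In the short-term T22 pools, malignant and stromal Parp1 overlapped (22.6 against 26.1 CPM summed).

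Among labels, long-term Parp1 was highest in B cells at 189 CPM (pools 91.8 to 254 CPM), followed by gamma-delta T cells at 80.1 CPM, CCR7 CD8 T cells (CD8_Tn) at 62.9 CPM and proliferating macrophages (Macro-MKI67) at 53.3 CPM. The B cells were shallow, with a median of 2082 UMIs. Going down the order of 21 long-term labels, the only neighbours whose pools did not overlap were inflammatory fibroblasts (i_CAF, 14.1 CPM) and Malign_0 below them. Leukocyte genes were set beside Parp1 in malignant cells. The pan-leukocyte gene Ptprc in long-term malignant cells stood at 0.923% of its immune level, Cd52 at 0.771%, Coro1a at 1.13% and Parp1 stood at 17.1%. The part of stray immune RNA in the malignant Parp1 level was not tested.

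Parp3 was high in T127 malignant cells and low in T22 malignant cells. In the long-term pools, Parp3 in T127 malignant cells ran from 43.1 CPM through a median of 53.8 to 64.7 CPM. T22 malignant cells ran from 4.66 through 5.77 to 6.82 CPM, and immune cells from 6.22 through 7.11 to 7.90 CPM. T127 lay apart from both, and T22 overlapped the lower immune pools. Parp3 was 7.50-fold higher in T127 malignant than in immune cells (7.02 to 8.01), and 1.25-fold lower in T22 malignant than in immune cells (1.08 to 1.45). In the short-term T127 pools, malignant cells had Parp3 at 87.1, 84.6, 84.0 and 88.8 CPM against 15.5, 17.3, 15.1 and 15.8 CPM in immune cells (5.41-fold higher, 4.94 to 5.93). The short-term T22 malignant cells had 8.36, 6.98, 6.17 and 7.56 CPM against 9.89, 10.2, 10.6 and 10.1 CPM in immune cells, all 4 lower, and summed 1.40-fold lower (1.24 to 1.58). Under TMM scaling the summed difference passed 1.5-fold. These T22 malignant pools lay above those of monocytes and macrophages (4.70 to 5.40 CPM) and below those of T cells (16.9 to 19.9 CPM).

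Fibroblasts and plasmacytoid dendritic cells (pDC) also carried Parp3. Long-term stromal cells had 34.0 CPM, 6.04-fold above T22 malignant cells (5.13 to 7.14), and T127 malignant cells were 1.55-fold above stromal cells (1.41 to 1.72). With every cell given equal weight the latter ratio was 1.35, short of 1.5-fold. In short-term T22, i_CAF had 49.9 CPM and myofibroblastic fibroblasts (my_CAF) 39.5 CPM, both above every other label there. The pDC label had 33.4 CPM long-term (pools 0 to 57.5 CPM) and 46.6 CPM in short-term T127 (28.4 to 55.4 CPM), where i_CAF had 42.0 CPM and overlapped it. The immune Parp3 level was 17.8% of the malignant level in the long-term pools, where immune Krt8 stood at 3.34%, Krt18 at 3.92%, Cldn3 at 3.80%, Epcam at 28.4% and Cdh1 at 76.1% of theirs. Epcam and Cdh1 were near 0 in T127 malignant cells, against 135 and 18.5 CPM in immune cells. The part of stray malignant RNA in the immune Parp3 level was not tested.

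**Figure D2:**
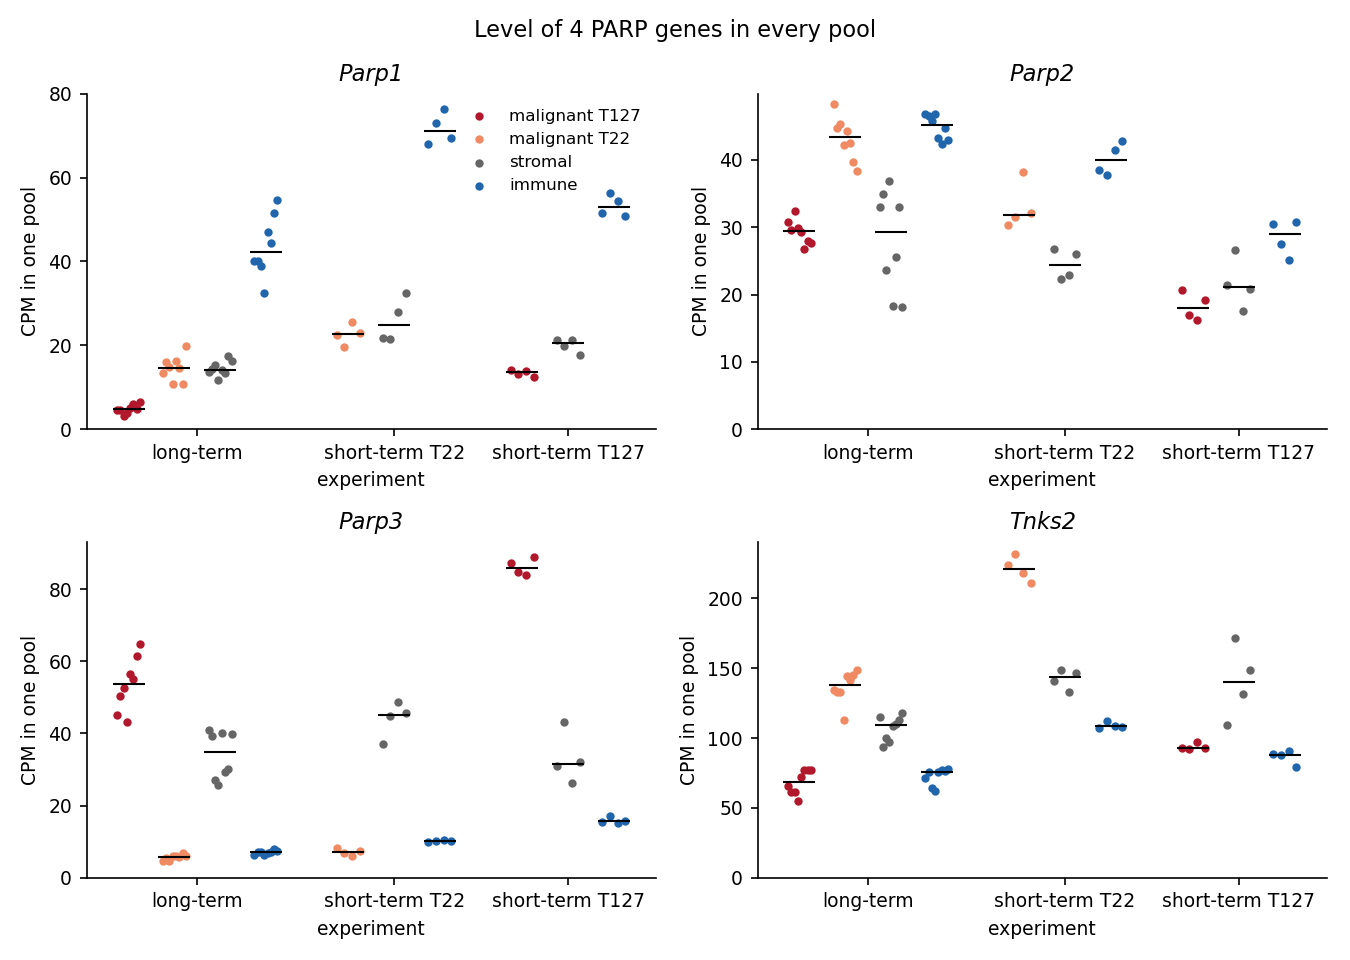
Level of Parp1, Parp2, Parp3 and Tnks2 in CPM (vertical axes, from 0) in every pool of the 3 experiments, 1 point a pool, for malignant T127 (dark red), malignant T22 (orange), stromal (grey) and immune cells (blue). Bars are medians over pools. Malignant Parp1 lies below every immune pool, and Parp3 is high in T127 malignant cells (43.1 to 64.7 CPM long-term) and low in T22 malignant cells (4.66 to 6.82 CPM).

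Parp2 differed less between classes than Parp1. Long-term Parp2 was 26.7, 29.4 and 32.4 CPM (lowest, median, highest pool) in T127 malignant cells, 38.3, 43.4 and 48.2 CPM in T22 malignant cells and 42.4, 45.2 and 46.7 CPM in immune cells. T127 lay below the other 2, which overlapped, and Parp2 was 1.52-fold lower in T127 malignant than in immune cells (1.46 to 1.59). In the short-term T127 pools the malignant values of 20.7, 16.9, 16.2 and 19.2 CPM lay below the immune 30.5, 27.6, 25.2 and 30.7 CPM (1.56-fold lower, 1.44 to 1.68). With every cell given equal weight the short-term ratio was 0.682, and with every label given equal weight the long-term ratio was 0.678, each short of 1.5-fold. The level was highest in proliferating macrophages in each experiment, at 74.1 CPM in long-term, 70.7 in short-term T22 and 45.5 in short-term T127.

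Xrcc1, the scaffold that poly(ADP-ribose) recruits, was higher in malignant than in summed immune cells in every pool of every experiment. Single immune types did not all lie below. Long-term T cells (12.2 to 27.0 CPM) overlapped both lines. The long-term labels CD14-PF4 (23.8 CPM) and Macro-MKI67 (23.0 CPM) stood above Malign_0 (21.0 CPM) and Malign_1 (21.8 CPM). The long-term ratio of malignant to summed immune cells over both lines was 1.47 (1.40 to 1.55). This ratio reached 1.5-fold in T22, at 29.2 against 16.0 CPM in the long-term pools (1.83-fold higher, 1.70 to 1.96) and at 20.7, 22.3, 21.99 and 23.3 CPM against 11.9, 14.0, 13.2 and 12.4 CPM in the short-term pools (1.71-fold higher, 1.58 to 1.85). Both T22 differences fell below 1.5-fold under TMM scaling, the short-term one to 1.44. In T127 the ratio was 1.33 long-term and 1.39 short-term.

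Trp53bp1, the gene of 53BP1, was the other member above its summed immune level in both lines. Long-term T127 malignant cells had a lowest, median and highest pool of 5.52, 7.22 and 8.38 CPM, T22 malignant cells 5.40, 6.02 and 7.61 CPM, and immune cells 2.07, 3.44 and 3.72 CPM. The malignant lines overlapped each other and neither overlapped the summed immune cells, with Trp53bp1 2.21-fold (1.97 to 2.48) and 1.96-fold (1.68 to 2.29) higher. Monocytes and macrophages ran from 1.76 to 3.64 CPM in these pools, while T cells (5.39 to 10.7 CPM) overlapped both lines. In the short-term T127 pools Trp53bp1 was 17.4, 16.6, 14.1 and 15.0 CPM in malignant against 4.15, 2.94, 3.18 and 4.48 CPM in immune cells (4.28-fold higher, 3.54 to 5.22). The short-term T22 ratio was 1.72 (1.56 to 1.91), although T cells there (11.0 to 13.7 CPM) overlapped malignant cells (12.7 to 14.6 CPM). Under TMM scaling the T22 ratios fell below 1.5-fold, to 1.46 long-term and 1.45 short-term. Among labels the gene was highest in endothelial cells in the long-term (12.3 CPM) and short-term T22 pools (15.8 CPM) and in Malign_0 in short-term T127 (16.4 CPM).

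Tnks2 was higher in T22 malignant cells than in immune or T127 malignant cells. Their long-term pools ran from 113 through 138 to 149 CPM, against 62.2, 75.7 and 77.6 CPM in immune cells and 54.8, 68.9 and 77.2 CPM in T127 malignant cells. T22 lay above both, while T127 and immune cells overlapped. In the short-term T22 pools Tnks2 stood at 223, 231, 218 and 211 CPM in malignant against 107, 113, 109 and 108 CPM in immune cells (2.03-fold higher, 1.98 to 2.08). The T127 ratio to immune cells was 0.929 long-term and 1.08 short-term. Stromal cells also carried Tnks2. Endothelial cells were the highest long-term label at 152 CPM, overlapping Malign_2 (145 CPM) and followed by Malign_3 (120 CPM), and the highest in short-term T127, while Malign_2 was highest in short-term T22. The ratio of T22 malignant to stromal cells was 1.26 (1.18 to 1.34) long-term, short of 1.5-fold with overlapping pools, and 1.56 (1.47 to 1.65) short-term.

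Tnks and Parp4 were below their summed immune level in T22 malignant cells, and near or above it in T127. Long-term Tnks was 13.0 CPM in T22 malignant and 21.1 CPM in immune cells (1.63-fold lower, 1.48 to 1.79), and Parp4 12.3 against 20.7 CPM (1.69-fold lower, 1.54 to 1.86). With labels of equal weight the Tnks ratio was 0.697, short of 1.5-fold. Among long-term T and NK labels with at least 50 cells, Tnks was 4.38 CPM in CD4 regulatory T cells and 12.3 CPM in NK cells. It was 13.0 CPM in CD8_Tn, 16.4 CPM in CD4_Tcm and 16.6 CPM in gamma-delta T cells. In short-term T22, malignant Tnks (27.6 to 32.4 CPM) overlapped T cells (27.3 to 32.1 CPM). In the short-term T22 pools Parp4 was 21.9, 21.8, 24.5 and 20.8 CPM in malignant against 42.3, 41.9, 38.7 and 41.5 CPM in immune cells (1.85-fold lower, 1.73 to 1.98). The long-term T127 ratios were 1.26 for Parp4 and 1.10 for Tnks, the latter turning to just under 1 with TMM scaling. With labels of equal weight the long-term immune Parp4 level was 29.5 CPM, above Malign_0 (25.4 CPM) and Malign_1 (27.2 CPM). Short-term T127 malignant cells had Tnks at 55.4, 56.2, 65.7 and 55.2 CPM against 35.0, 37.8, 37.1 and 38.8 CPM in immune cells (1.56-fold higher, 1.47 to 1.66). Without pool 3, the highest, the ratio was 1.49. Among labels, Tnks was highest in fibroblasts, with my_CAF highest at 57.9 CPM long-term and 88.6 CPM in short-term T22 and i_CAF highest at 74.2 CPM in short-term T127. Against stromal cells, Tnks was 3.39-fold lower in long-term T22 malignant cells (3.00 to 3.83) and 1.90-fold lower in T127 (1.73 to 2.09). It was 2.32-fold lower in short-term T22 malignant cells (2.12 to 2.55), while in short-term T127 the malignant to stromal ratio was 0.853 (0.745 to 0.981) with overlapping pools, and endothelial cells (54.8 CPM) lay below Malign_0 (57.4 CPM) and Malign_1 (59.0 CPM).

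Parg, which removes the chains, stayed within 1.5-fold of its immune level. Its malignant to immune ratio was 0.860 (0.798 to 0.926) over both lines in the long-term pools, 0.689 (0.631 to 0.752) in short-term T22 and 1.03 (0.935 to 1.13) in short-term T127. None reached 1.5-fold, although the first 2 did under TMM scaling, as lower. In each of the 3 experiments, every pair of neighbours in the order of labels overlapped for Parg.

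**Figure D3:**
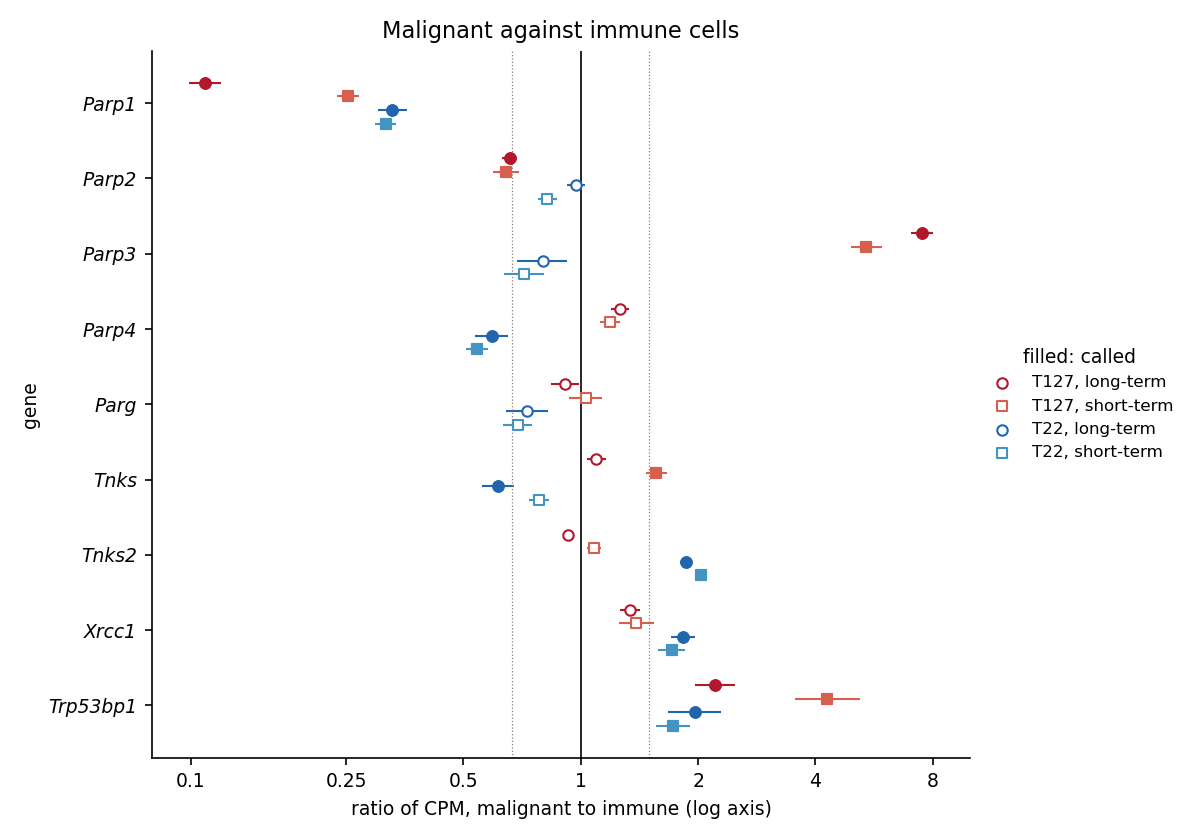
Ratio of the malignant to the immune level of each gene (horizontal axis, log scale) for T127 and T22 in the long-term and short-term pools, with 95% intervals of counting error. Filled points differ at least 1.5-fold in the same direction in every pool, and dotted lines mark 1.5-fold. Parp1 lies left of 1 in all 4 comparisons, and Parp3 right of 1 in T127 only.

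Counts of members that differed were set beside those of all genes. Against immune cells, 2 of the 9 were higher and 1 lower over both lines in the long-term pools, beside 63.7% of all genes tested that differed in either direction (41.5% higher and 22.2% lower). Under TMM scaling, 2 were higher and 3 lower, beside 30.2% and 29.8% of all genes. For T127 alone in the long-term pools, 4 of 9 differed beside 63.2% of genes, 2 of them higher beside 35.7% and 2 lower beside 27.5%. For T22 alone, 6 of 9 differed beside 63.8%, 3 higher beside 37.0% and 3 lower beside 26.8%. That T22 split became 0 higher and 5 lower under TMM scaling, which lost Tnks2, Xrcc1 and Trp53bp1 and added Parp3 and Parg, beside 26.0% of all genes higher and 35.6% lower. In short-term T22, 5 of 9 differed beside 67.3%, 3 higher beside 37.5% and 2 lower beside 29.9%, or 1 higher and 5 lower under TMM scaling, beside 30.6% and 35.5% of all genes. In short-term T127, 5 of 9 differed beside 64.1%, 3 higher beside 39.0% and 2 lower beside 25.1%. The results are read as those of single genes and not of the members as a group. TMM scaling moved the median gene from a log2 ratio of 0.31 to -0.01 in the long-term comparison and left Parp1 lower and, in T127, Parp3 higher.

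Against stromal cells, 2 of 9 were lower in the long-term pools (Parp1 and Tnks) beside 43.2% of genes in either direction, 24.0% higher and 19.2% lower. For T127 alone 4 of 9 differed beside 44.5%, with Parp3 higher and Parp1, Tnks and Tnks2 lower. Under TMM scaling Tnks2 dropped out and Parp4 and Trp53bp1 were added as higher. For T22 alone 5 of 9 differed beside 54.1%, 2 higher (Parp2 and Xrcc1) beside 27.1% and 3 lower (Parp3, Parp4 and Tnks) beside 27.0%, of which Parp4 dropped out under TMM scaling or with cells or labels of equal weight, and Parp2 (1.45) with cells of equal weight. In short-term T22, 4 of 9 differed beside 57.0%, with Tnks2 and Xrcc1 higher beside 30.0% and Parp3 and Tnks lower beside 27.0%. With every cell given equal weight both higher ones were lost, Tnks2 at 1.41 and Xrcc1 at 1.33, and Parp4 was added as lower at 0.635. In short-term T127, 4 of 9 differed beside 45.8%, with Parp3, Parp4 and Trp53bp1 higher beside 28.1% and Parp1 lower beside 17.7%. With cells of equal weight Trp53bp1 was lost, at 1.33, and Tnks2 was added as lower, at 0.564.

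The rest of the PARP family and its partners was read from fixed lists. Of 10 other PARP genes, 2 were higher and 5 lower in malignant than in immune cells in the long-term pools (41.5% and 22.2% of all genes), 1 and 6 in short-term T22 (37.5% and 29.9%) and 2 and 6 in short-term T127 (39.0% and 25.1%). The list's long-term median log2 ratio was -0.46, against 0.31 over all genes. Parp14, an interferon-induced PARP, was at 18.2 against 77.3 CPM (ratio 0.235), and its short-term ratios were 0.128 in T22 and 0.227 in T127. Of 19 genes of single-strand break and base excision repair, 7 were higher and 1 lower long-term, 5 and 3 in short-term T22 and 6 and 7 in short-term T127. Tdg, a thymine-DNA glycosylase, had a ratio of 2.43 and Apex1, the main abasic site nuclease, 1.98 in the long-term pools. Fen1, the flap nuclease, and Pcna, the replication clamp, were at 0.346 and 0.382 in short-term T127.

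Of 9 genes tested among erasers, cofactors and readers of ADP-ribose, 5 were higher and 2 lower long-term, where 41.5% of all genes were higher and 22.2% lower. Macrod2, a hydrolase of single ADP-ribose units, had a ratio of 7.59, while Hpf1, the cofactor that directs PARP1 and PARP2 to serine, had 0.488 and Chd1l, a remodeler that binds the chains, 0.266. In the 53BP1 and shieldin list, 2 of 11 were higher (Dynll1 1.92 and Rif1 1.69) and 1 lower (Mad2l2 0.457). NAD genes split evenly, with 3 of 10 higher and 3 lower. Nmnat2, an NAD-making enzyme, had a ratio of 20.4 and the NAD-consuming enzyme Cd38 0.0689.

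Malignant cells of T22 were compared directly with those of T127. The long-term T22 cells include T22 tumors grown opposite T127, which the study found to be resistant to olaparib. The long-term contrast is therefore one of lines and not of sensitive against resistant tumors. Long-term T22 tumors were also placed about 14 days before T127 tumors, so line and tumor age cannot be told apart there. In the long-term pools both lines were captured together. Parp1 was 3.02-fold higher in T22 (2.67 to 3.42) and Tnks2 2.00-fold higher (1.93 to 2.08). Parp3 was 9.39-fold lower in T22 (8.20 to 10.8), Parp4 2.13-fold lower (1.93 to 2.35) and Tnks 1.79-fold lower (1.62 to 1.97). These 5 of 9 stood beside 56.6% of all genes, the 2 higher beside 28.7% and the 3 lower beside 27.9%. Parp2 was 1.48-fold higher (1.39 to 1.57) and Xrcc1 1.37-fold higher (1.27 to 1.47) in all 8 pools, short of 1.5-fold. The Trp53bp1 ratio was 0.888 (0.765 to 1.03) and that of Parg 0.799 (0.701 to 0.910), with overlapping pools.

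In the short-term experiments the lines were captured in different pools, so line and pool cannot be told apart. The same 5 genes differed in the same direction there, and Parp2 joined them, making 6 of 9 beside 63.2% of genes, 3 higher beside 31.5% and 3 lower beside 31.7%. Parp3 was 11.8-fold lower in T22 (10.7 to 13.1), Parp4 2.31-fold lower (2.17 to 2.45), Tnks 1.96-fold lower (1.86 to 2.07) and Tnks2 2.36-fold higher (2.31 to 2.42). The Parp2 pools of 30.3, 31.5, 38.1 and 32.2 CPM in T22 lay above 20.7, 16.9, 16.2 and 19.2 CPM in T127 (1.80-fold higher, 1.70 to 1.91). Parp1 differed less than in the long-term pools, at 1.68-fold (1.57 to 1.80), and at 1.49-fold under TMM scaling. Of 10 cycling genes, 8 were higher in T22 and 0 lower in the long-term pools (Mki67 57.5 against 11.4 CPM), and 4 were higher and 0 lower in the short-term pools. Leukocyte genes were also higher in T22 malignant cells. Of 3 pan-leukocyte genes, 1 was higher by the rule long-term and 3 short-term, with Ptprc at 6.87 against 3.56 CPM long-term and 10.4 against 1.43 CPM short-term. Of macrophage and monocyte markers, 2 of 5 were higher long-term (Cd14 1.56-fold and Itgam 2.21-fold) and 2 of 4 short-term (Csf1r 3.60-fold and C1qa 6.09-fold), and of 3 T cell markers 0 and 3. The part of cycling and of stray immune RNA in the differences between the lines was not tested.

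**Figure D4:**
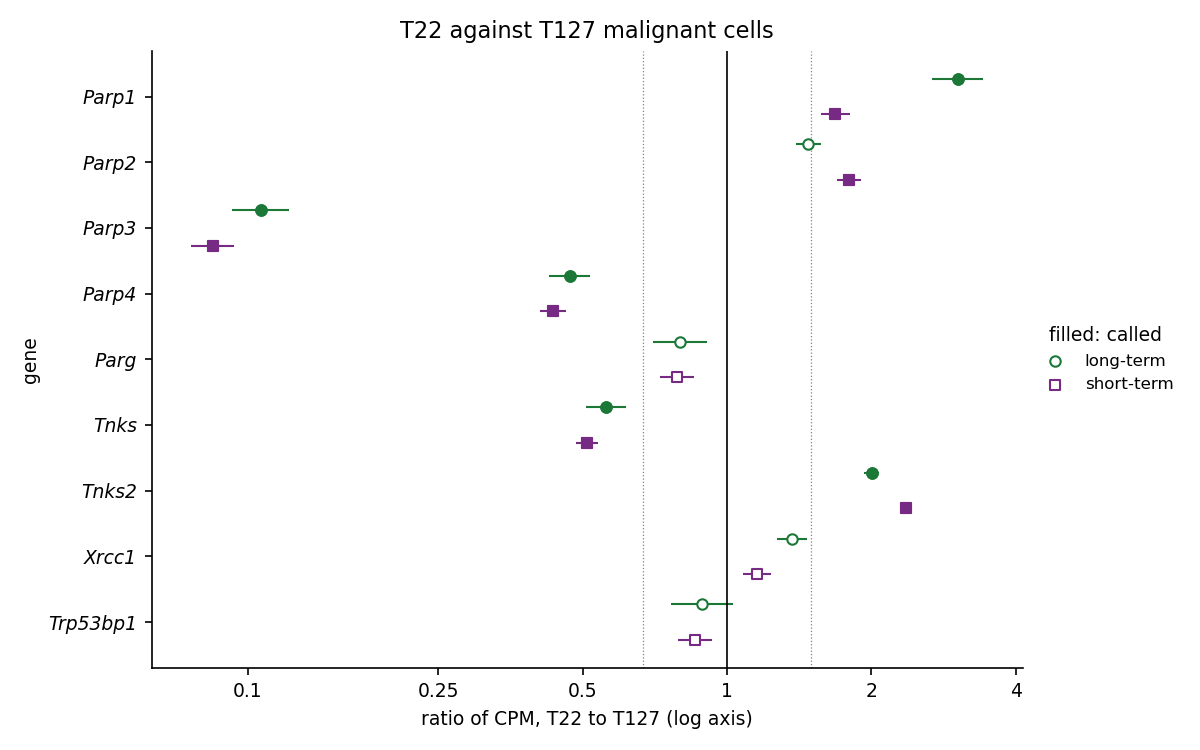
Ratio of the T22 to the T127 malignant level of each gene (horizontal axis, log scale) in the long-term and short-term pools, with 95% intervals of counting error. Filled points differ at least 1.5-fold in the same direction in every pool. Parp3 is 9.39-fold lower in T22 long-term and 11.8-fold short-term, and Tnks2 and Parp1 lie on the T22 side.

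Among related genes, 8 of 19 in single-strand break and base excision repair were higher and 2 lower in T22 long-term, and 7 and 2 short-term. Of all genes, 28.7% were higher and 27.9% lower long-term, and 31.5% and 31.7% short-term. Aptx, which removes AMP from stalled ligation ends, was 3.98-fold higher long-term and 3.96-fold short-term, and Ung, the uracil-DNA glycosylase, 7.99-fold and 2.73-fold. Rnaseh2a, which helps clear ribonucleotides from DNA, had ratios of 0.297 and 0.284. Of 10 other PARP genes, 2 were higher and 2 lower long-term and 0 and 4 short-term, led by Tiparp, a target of the aryl hydrocarbon receptor, at 10.8 against 110 CPM long-term. Its ratios were 0.0982 and 0.151. Of 6 tankyrase partners tested, none was higher and 3 were lower in both experiments. Sh3bp2, an adaptor protein that tankyrases modify, had ratios of 0.444 and 0.306. Tnks1bp1 had ratios of 0.524 and 0.418, and Numa1, a spindle pole protein, 0.644 and 0.510. Among 9 genes of the ADP-ribose erasers and readers, Chd1l was 2.64-fold and 1.96-fold higher, and Rnf146, the ligase that reads tankyrase chains, was at 0.503 and 0.419. In the 53BP1 and shieldin list, 2 of 11 were higher and 1 lower long-term and 1 and 2 short-term, with Topbp1 2.05-fold higher long-term and Shld2, a shieldin subunit, 1.76-fold and 1.92-fold higher.

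Some of the members were higher in the proliferating labels of immune cells than in other cells of the same type. Macro-MKI67 was set against the other macrophage labels and Tprf-MKI67 against the other T cell labels. In long-term macrophages (420 proliferating and 8508 other cells) Parp2 was 74.1 against 42.9 CPM, 1.73-fold higher (1.57 to 1.90) in all 8 pools. No other of the 9 differed by the rule, and Parp2 stood beside 14.5% of genes in either direction, 9.87% higher and 4.67% lower. Parp1 was 1.28-fold (1.14 to 1.43) and Xrcc1 1.51-fold higher (1.27 to 1.78), each in 7 of 8 pools. Without pool 3, Xrcc1 was higher in every pool, at 1.60-fold.

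In short-term T22 macrophages, Parp2 (1.83-fold, 1.63 to 2.05) and Xrcc1 (1.93-fold, 1.56 to 2.37) were higher, 2 of 9 beside 20.0% of genes in either direction, 12.5% higher and 7.48% lower. Short-term T127 macrophages had Parp2 1.84-fold higher (1.55 to 2.19) and Parp1 1.59-fold higher (1.40 to 1.81), 2 of the 8 tested beside 25.5%, 15.0% higher and 10.5% lower. Without pool 4, Parp1 was at 1.49-fold. Parp2 was thus above 1.5-fold in proliferating macrophages of all 3 experiments. Other cell markers moved with this contrast. Of 5 macrophage and monocyte markers, none was higher in proliferating macrophages and 3 were lower in the long-term pools (Csf1r 369 against 581 CPM, Cd14 1243 against 1913 CPM and Adgre1 69.9 against 112 CPM), 4 in short-term T22 and 3 in short-term T127. Epcam (195 against 101 CPM long-term) and Cdh1 (34.3 against 15.5 CPM) were higher in all 3 experiments, while Krt8 was at 13.0 against 25.2 CPM, Krt18 at 18.3 against 29.9 CPM and Cldn3 at 1.05 against 4.75 CPM in the long-term pools. Of 4 fibroblast markers none differed by the rule, although Dcn was 256 against 70.0 CPM in the long-term pools (3.66-fold higher, 3.47 to 3.86). The endothelial marker Pecam1 was lower in the long-term pools (2.54 against 7.82 CPM) and in short-term T127 (3.68 against 28.9 CPM). Kdr was lower in short-term T127 (2.30 against 10.5 CPM), and no endothelial marker differed by the rule in short-term T22. Their part in the Parp1, Parp2 and Xrcc1 values was not tested.

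Proliferating T cells were numerous in short-term T22, with 418 cells against 3087. Parp1 was 135 against 71.2 CPM (1.89-fold higher, 1.74 to 2.06), Parp2 58.1 against 33.7 CPM (1.73-fold, 1.52 to 1.96) and Xrcc1 19.6 against 12.3 CPM (1.59-fold, 1.27 to 1.98). Parp3 was 12.7 against 19.8 CPM, 1.56-fold lower (1.23 to 2.02). These 4 of 9 stood beside 20.7% of genes, the 3 higher beside 11.6% and the 1 lower beside 9.15%. Without pool 1 Xrcc1 fell just below the 1.5-fold limit and was no longer counted, and Parp3 no longer differed by 1.5-fold without pool 2, without pool 3 or with labels of equal weight. Markers of other cells moved with this contrast too. Of 3 malignant markers with enough UMIs 1 was lower by the rule (Cdh1, 23.7 against 57.0 CPM), and of 3 fibroblast and 3 macrophage markers none was, although Dcn was 6.01 against 13.7 CPM, Col1a1 8.12 against 19.0 CPM and C1qa 18.0 against 42.6 CPM. Among NK markers, Nkg7 (344 against 574 CPM) and Klrb1c (17.4 against 32.7 CPM) were lower by the rule, while Ncr1 was not (80.0 against 77.1 CPM). The part of these markers' cells in the values of the members was not tested. The long-term pools held only 21 proliferating T cells in 7 pools, where Parp1 was 2.31-fold (1.55 to 3.34) and Parp2 1.52-fold higher (0.887 to 2.44), the latter below 1.5-fold under TMM scaling and without pool 4 or pool 8. C1qa (32.5 against 117 CPM) and Col3a1 (8.13 against 24.7 CPM) were lower in these cells. Parg had 0 UMIs in these cells, which allows up to 12.2 CPM, against 15.8 CPM in other T cells, so a 1.5-fold difference was not detectable at this depth. Beside these values, 5.61% of genes differed by the rule, 1.39% higher and 4.22% lower.

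**Figure D5:**
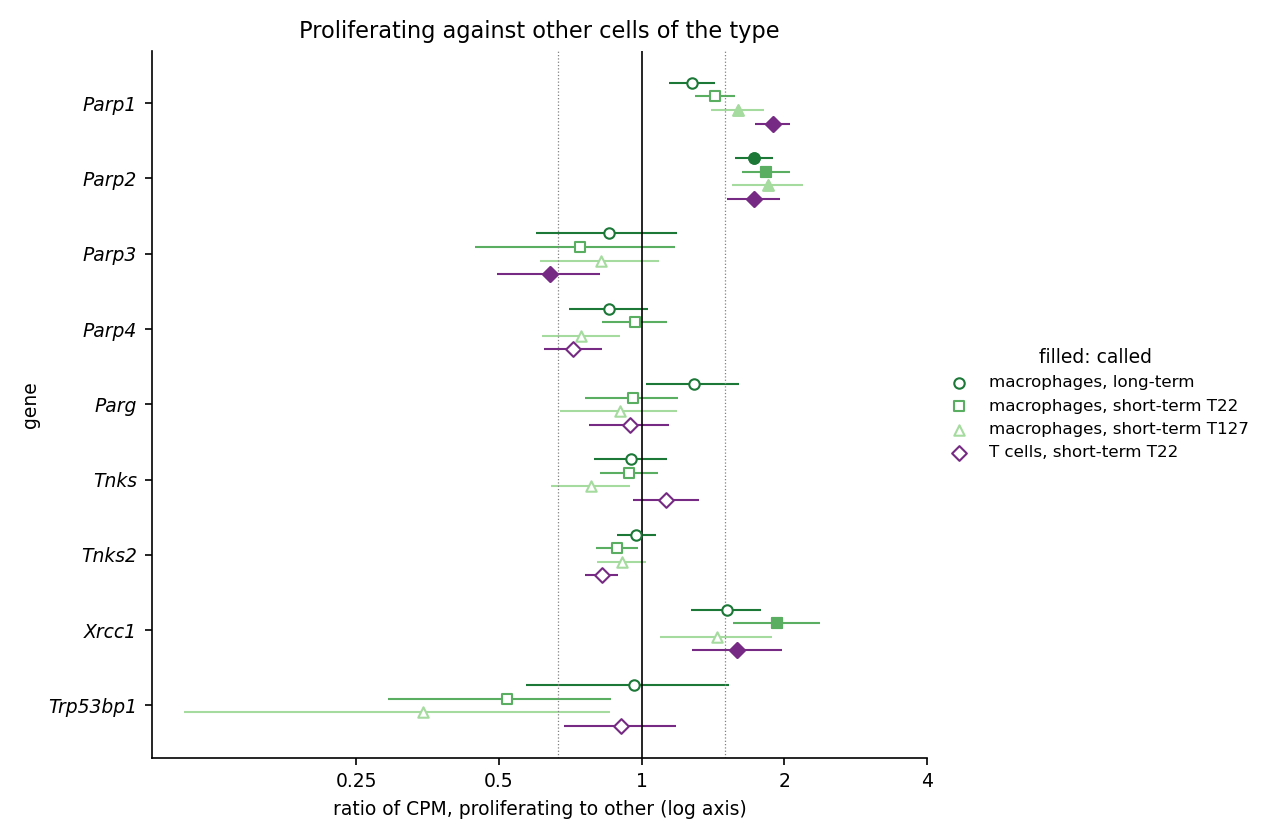
Ratio of the proliferating to the other cells of the same type for each gene (horizontal axis, log scale), for macrophages in 3 experiments and T cells in short-term T22, with 95% intervals of counting error. Filled points differ at least 1.5-fold in the same direction in every pool. Parp2 is filled in all 4, at 1.73 to 1.84.

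In long-term macrophages, where 9.87% of all genes were higher and 4.67% lower in proliferating cells, partner genes were counted the same way. All 10 cycling genes were higher, and 10 of 19 in single-strand break and base excision repair, with Lig1 (DNA ligase I) 4.45-fold, Fen1 3.47-fold and Pcna 2.64-fold. In the 53BP1 and shieldin list 5 of 11 were higher, led by Topbp1 at 3.07-fold, and in the ADP-ribose list 4 of 8, led by Parpbp at 7.56-fold. Of 10 other PARP genes, none was higher and 2 were lower (Parp9 at 0.649 and Parp11 at 0.522). Malignant cells with a Mki67 or Top2a UMI, all cells thinned to 3000 UMIs, gave no member a difference in every pool, beside 13.3% of genes, 6.70% higher and 6.59% lower. Their Parp1 level was 10.8 against 5.99 CPM (ratio 1.80, 1.10 to 2.81), higher in 5 of 8 pools and resting on 24 against 110 UMIs. Other members were also sparse in the cycling cells, with Trp53bp1 at 8 UMIs in T22 and 6 in T127 and Parg at 12 and 9. Spread over 8 pools, such counts leave the rule hard to meet, so its outcome says little about these members. The split into cycling and other cells mixed the lines, since 18.9% of T22 and 6.89% of T127 malignant cells carried a Mki67 or Top2a UMI. Within T22 the Parp1 ratio was 1.08 (0.580 to 1.88) and within T127 2.35 (0.958 to 5.03), the latter on 8 UMIs in cycling cells. Parp1 had fewer than 100 UMIs in each line, so the rule was not applied to it there. Xrcc1 was 1.52-fold higher (1.07 to 2.11) in cycling cells of T22, in 7 of 8 pools. In T127 its ratio was 1.497 (0.998 to 2.17), with 6 of 8 pools higher. Parp2 had ratios of 1.25 (0.932 to 1.64) in T22 and 1.24 (0.857 to 1.75) in T127. Parp3 and Trp53bp1 had ratios below 1 in both lines, and Parp4, Parg, Tnks and Tnks2 went opposite ways in them. No member was counted as different within a line.

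The same labels differed between the experiments. No share over all genes was taken for these label counts, and labels of the same captures are not separate observations. Tnks was higher in the short-term than in the long-term pools in 14 of 14 labels of T127 and 16 of 16 of T22, with median ratios of 2.04 and 2.03. Parp4 followed in the same labels (1.90 and 1.65), and Parg in 13 of 14 and 15 of 16. Parp2 went the other way, higher in 0 of 14 and 1 of 16 labels, with median ratios of 0.606 and 0.824. Parp1 was 16.3 CPM short-term against 5.27 CPM long-term in Malign_0 and 10.2 against 3.97 CPM in Malign_1. The other 12 labels of T127 overlapped between the experiments for Parp1, with ratios from 0.641 in CD4_Tcm to 1.97 in CD14-PF4. In T22, Parp1 was higher short-term in 15 of 16 labels (median ratio 1.60), and 6 had no overlap of pools, Malign_2 at 1.59, i_CAF at 1.69 and the immune labels CD16-CDKN1C at 1.62, Macro-M1 at 1.52, Macro-M2 at 1.78 and Macro-MKI67 at 1.76. The nuclear transcript Malat1 in T127 malignant cells was 17947 CPM short-term and 38691 CPM long-term, and mitochondrial genes made up 2.57% and 1.20% of their UMIs. The part of RNA quality was not tested, and treatment length, co-transplantation and capture cannot be told apart. In immune and stromal labels, tumor line cannot be told apart from these either, since their long-term cells came from both lines.

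Shares of cells with a UMI were taken after thinning every cell to 3000 UMIs, because malignant cells were deeper. In the long-term pools, Parp1 was seen in 1.15% of T127 malignant cells, 3.45% of T22 malignant cells, 4.27% of stromal and 12.0% of immune cells (11.4 to 12.5). Without thinning, the shares were 8.56% in T127, 20.5% in T22 and 27.3% in immune cells. Parp3 was seen in 14.6% of T127 malignant cells, 1.73% of T22 malignant, 2.11% of immune and 8.53% of stromal cells. The order of shares followed that of CPM for both genes. Thinning left out 3187 immune, 201 stromal and 0 malignant cells. No label lacked either gene by design, so these shares have no empty reference.

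Over the 21 long-term labels with at least 50 cells, the genes most like each member in log2(CPM + 1) were listed among 8001 genes. Points share libraries and differ in depth, and the values are descriptions. Nearest to Parp1 were Cyth1 (Pearson r = 0.910), Ccdc69 (0.909) and Rhoh (0.909), and nearest to Parp3 were Sec62 (0.915), AI837181 (0.912) and Otud7b (0.892). Parp2 had Cenpx at 0.869, Parp4 had Kmt2c at 0.912, Tnks2 had Zmynd11 at 0.884 and Xrcc1 had H1fx at 0.813. Among the members themselves r ran from 0.592 for Parp4 and Parg to -0.703 for Parp2 and Parp3, and Parp1 and Parp3 gave -0.464.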

How the data were processed

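Cells of 16 pools were captured with 10x Genomics 3' v3.1 chemistry after tagging by tumor. Per the labels, the authors aligned reads with Cell Ranger 6.0.0 to GRCm38, and per the study's methods counted introns and removed doublets with Scrublet. The deposited tables hold UMI counts for 32285 genes, a cell label and a normalized signal for 4000 genes. The signal, scaled and log-transformed by the authors, was not used, and doublets were not called again. The organism field reads human, but tumors and gene names are mouse. The treatment field of all pools names olaparib, although the titles name treated and untreated tumors.

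Counts were summed per label, class and pool and divided by total UMIs. Ratios used a pseudocount of 1 CPM for log2 values, counting intervals were exact Poisson or binomial (95%), and a count of 0 allows up to 3 counts. A ratio counted as a difference at 100 UMIs, 1.5-fold and the same direction in every pool (separate pool ranges between short-term lines). Genes named from the lists of related genes were taken from the 3 with the largest differences in a list and comparison. Cell type markers were not held to this rule. Some of those printed are not among the 3, such as Krt8, Krt18 and Dcn in long-term proliferating macrophages. Scripts used pandas 2.3.3, scipy 1.17.1, matplotlib 3.10.9 and numpy 2.4.6 under Python 3.11.15 and were tested on simulated data. Members and lists were chosen with earlier results of these data known. Splits of the long-term malignant cells by line, the cycling split included, and proliferating short-term comparisons were added after seeing the data. No column of sample values was left unused, and no sequence or coordinate is given, since no mouse reference was used.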

Additional observations from a re-analysis of the deposited data

Results flagged for a closer look

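In 3 of 81 groups of 4 or 8 pools, 1 pool stood apart by its gap to the nearest pool relative to the range. Chance gives about 1 in 20 such groups. Parp1 in malignant cells was 10.7 CPM in long-term pool 8, the highest of the 8. Tnks in malignant cells was 65.7 CPM in short-term T127 pool 3, and Trp53bp1 in stromal cells was 7.72 CPM in long-term pool 7.

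Some members differed in opposite directions in T22 and T127, in every pool of the short-term experiments. The difference between the lines was not tested, and no share over all genes was taken for such opposite directions. Against immune cells, the log2 ratio of malignant cells was -0.43 in T22 and 2.36 in T127 for Parp3, -0.86 and 0.24 for Parp4, and -0.35 and 0.63 for Tnks. For Parp3 in T22 and Parp4 in T127, the sign depended on the immune cells taken. T22 malignant Parp3 (6.17 to 8.36 CPM) lay above monocytes and macrophages (4.70 to 5.40 CPM) and below T cells (16.9 to 19.9 CPM). T127 malignant Parp4 (48.2 to 54.3 CPM) lay above monocytes and macrophages (35.6 to 43.0 CPM) and below T cells (71.7 to 91.4 CPM). T22 malignant Tnks (27.6 to 32.4 CPM) lay below monocytes and macrophages (39.9 to 43.6 CPM) but overlapped T cells (27.3 to 32.1 CPM). Against stromal cells, the log2 ratio of malignant cells was 0.41 in T22 and -0.24 in T127 for Parp2, -2.45 and 1.34 for Parp3, -0.48 and 0.76 for Parp4, and 0.63 and -0.58 for Tnks2.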

How the results depend on the processing

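Of 2736 ratios of members recomputed under other settings, 2542 moved by less than 1 SD between pools, 194 moved by more, and no difference counted in the report changed direction. Of 305 counts of members that differed, 267 stayed within 1.5 times. The settings were other totals (without mitochondrial and ribosomal genes), TMM scaling, cells of equal weight, labels of equal weight, all copies of shared barcodes, cells with at least 1000 genes, the deepest 5% of cells left out, proliferating labels left out, no UMI minimum, pseudocounts, a 2-fold limit and each pool left out. The 2-fold limit and the lack of a UMI minimum act on counts alone and cannot move a ratio. Leaving out proliferating labels cannot move a ratio without immune cells. The ratios recomputed under these settings are unchanged by construction and raise the share that stayed within 1 SD. Against immune cells, the count of 3 for long-term malignant cells was 5 under TMM scaling and with labels of equal weight. With a pseudocount of 10 CPM it was 3 in place of 5 in short-term T22 and in short-term T127, 2 in place of 4 for long-term T127 and 3 in place of 6 for long-term T22. A 2-fold limit gave 2 in short-term T22, 3 in short-term T127 and 1 for long-term T22. Against stromal cells, the long-term 2 became 1 with labels of equal weight, a pseudocount of 10 CPM or a 2-fold limit. A 2-fold limit gave 2 of 4 in short-term T22 and in short-term T127, 1 of 4 for long-term T127 and 2 of 5 for long-term T22, and the larger pseudocount 2 in short-term T127 and 2 for long-term T22, where cells of equal weight gave 3. Between the lines, the short-term 6 became 3 at 2-fold. In proliferating macrophages, the long-term 1 became 2 without the deepest cells, with labels of equal weight or without pools 1, 2 and 3, and 0 at 2-fold, and the short-term 2 became 1 with the larger pseudocount and 0 at 2-fold in each line. In proliferating T cells, the long-term count, 3 by the rule alone with Parg at 0 UMIs among them although its difference was not detectable at this depth, became 1 among cells with at least 1000 genes, and the short-term 4 became 2 with the larger pseudocount and 0 at 2-fold. For cycling malignant cells the count of 0 was 1 at 1500 UMIs, 2 without thinning and 1 without pools 1, 2 and 3. Leaving out each pool in turn gave 1 to 2 in long-term proliferating macrophages, 1 to 2 in long-term proliferating T cells and 0 to 1 in cycling malignant cells. The cause of these moves was not tested beyond the construction of each limit. No paired analysis was possible because no result came from a test and pool numbers tie no tumors together. Labels with fewer than 50 cells were left out of the orders.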

Other observations

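Transcripts of several NAD genes differed between the lines. Naprt, which makes NAD from nicotinic acid, was 40.5-fold higher in T22 than in T127 malignant cells in the long-term pools and 25.5-fold higher in the short-term pools. Nmnat2 went the other way, with ratios of 0.0362 and 0.0239, as did Sirt1, an NAD-dependent deacetylase, at 0.413 and 0.290. Of the NAD list, 2 of 8 genes were higher and 5 lower in T22 long-term, and 3 and 6 of 10 short-term. Among all genes tested, 28.7% were higher and 27.9% lower long-term, and 31.5% and 31.7% short-term.

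Parp3 in M2-type macrophages was 17.8 CPM in short-term T127, 6.26 CPM in short-term T22 and 8.21 CPM in the long-term pools. In the same cells, Krt8 was 12.9, 5.05 and 15.0 CPM and Krt18 6.68, 3.95 and 19.3 CPM, Epcam was 144, 48.8 and 85.3 CPM, Cdh1 135, 14.3 and 21.2 CPM and Cldn3 0, 2.31 and 2.36 CPM. Short-term T127 malignant cells themselves had Epcam at 1.43 CPM and Cdh1 at 0.37 CPM, and the part of malignant RNA was not tested. B cells had Parp1 at 164 CPM in short-term T22 and 160 CPM in short-term T127, on 38 and 42 cells.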
